A study of Mus musculus with 37 samples.

Results

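Cohesin is a ring of SMC1, SMC3, a kleisin and a STAG subunit that holds sister chromatids together. Meiotic cells use SMC1B, REC8 and STAG3 beside the general subunits SMC1A, RAD21 and STAG1 or STAG2. In mammalian oocytes cohesion made before birth has to last until the meiotic divisions, when separase cuts REC8 on the arms first and shugoshin with the phosphatase PP2A protects it at centromeres. WAPL opens the ring without cutting it. Transcripts of these genes were followed here through 9 members chosen by symbol: Rec8, Smc1b, Smc1a, Smc3, Stag3, Rad21, Sgo1, Sgo2a and Wapl. All 9 were found among the 54752 gene features that are not spike-ins.

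RNA of 37 single oocytes from C57BL/6 mice aged 6 to 8 weeks was sequenced with a full-length protocol. Batch A held 6 oocytes at the germinal vesicle (GV) stage and 6 at metaphase II (MII), and batch B held 10 at GV and 15 at metaphase I (MI). Donors of GV and MII oocytes were primed with PMSG (5 IU), and for donors of MI oocytes priming is not stated separately. Ovaries gave the GV oocytes at 48 h, while donors of MII oocytes also received hCG (5 IU) and gave them from the oviduct 15 h later. MI oocytes had started at the GV stage and spent 8 h in culture, so stage goes with the source and hormone treatment of the cell. The stages were picked by shape, zona and polar body had been removed, and which animals gave which oocytes is not stated in the sources used here. The p-values therefore measure the spread between oocytes. MI and MII were never in the same batch.

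Depth was 7554477 to 12743688 expected counts per oocyte in GV of batch A and 10050702 to 14126636 in MII. In batch B it was 7184194 to 17724533 in GV and 2709247 to 19390141 in MI, where replicate 15 was the shallowest. All 10 oocyte marker genes, among them Gdf9, Zp3 and Bmp15, were detected in each of the 4 groups, with a lowest summed level of 2599 CPM (counts scaled to library size) in an oocyte. Their level moved with stage in batch A, where 6 of the 10 were lower in MII and none was higher, against 11.5% and 9.06% of all genes (median log2 change -0.82, Zp3 at -2.21 ± 0.22, SE), and the same 6 passed as lower with spike-in size factors. Nlrp5, 1 of the 6, lost its call in a model of all 37 oocytes (adjusted p = 0.0872) and on leaving out any 1 of 5 particular oocytes (adjusted p up to 0.0639). The 15 granulosa and cumulus marker genes summed to 19.4 to 63.5 CPM per oocyte. The most abundant of them was Cyp19a1 in GV and MII and Nr5a2 in MI. Marker CPM values here were scaled to library size alone unless TMM is named, while those of the members used TMM. In batch A their sum over the 15 granulosa and cumulus genes had a median of 48.3 CPM in GV and 32.7 CPM in MII. On that scale the mean of 11 of the 15 was lower in MII and that of 4 was higher. With TMM, Cyp19a1 (means of 16.1 CPM in GV and 17.4 CPM in MII), Nr5a2 (13.9 and 14.9) and Inhba (0.72 and 0.80) turned to higher. The other means kept their direction. Without TMM, Ccnd2 averaged 3.90 CPM in GV and 0.0609 CPM in MII, and Cyp11a1 2.66 and 0.454 CPM. These did not pass the filter there, and the 2 genes that did, Cyp19a1 and Nr5a2, did not differ past the threshold. The part of these markers in the member changes was not tested. Ptx3 was at 0 in GV of batch A, and Amh, Foxl2 and Ptx3 were at 0 in both groups of batch B. The 8 blood and immune markers summed to 15.4 CPM in MII replicate 1, with Hba-a1 at 4.54 CPM and Hbb-bs at 4.07 CPM, and to at most 2.43 CPM in the other oocytes of batch A and 9.31 CPM in batch B. Not every marker was raised there: Alas2 was at 0, and Cd68 at 1.01 CPM was below its 1.43 CPM in MII replicate 5. The library of MII replicate 1 also stood apart in its number of genes with a count, 29816 against at most 22598 in the other MII oocytes. Without it the same number of members passed between GV and MII, 4 higher and 1 lower.

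Rec8, the meiotic kleisin on chromosome 14 (55618037 to 55625395, GRCm38), was close to undetected. RSEM gave it 0 counts in 36 of the 37 oocytes and 4 counts in MII replicate 1. That library had the highest sum of the blood and immune markers, and a link to Rec8 was not tested. HTSeq gave 1 count in a GV oocyte of batch A, 8 and 2 counts in 2 MII oocytes, and 0 in batch B. An RSEM count of 0 was given a 95% upper limit of 3 counts. On that basis Rec8 per length was bounded at 2.68% of Rad21 or lower in the GV oocytes of batch A. In the 5 MII oocytes with 0 RSEM counts the bound was 1.38% or lower. In batch B the highest bounds were 6.42% in GV and 11.2% in MI, the latter in replicate 15, without which it was 3.10%. Rec8 did not pass the filter on low counts in either batch. Without a filter it was fitted between GV and MII and did not pass (adjusted p = 0.161), and no fold change is given, since its RSEM counts there came from 1 oocyte. The bound covers counting error only.

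Of the other meiotic subunits, Smc1b was present at a low level and Stag3 was lower still. Smc1b was between 9.96 and 16.5 CPM in GV of batch A (median 11.9) and between 8.56 and 16.0 CPM in MII (median 10.3). In batch B it was 12.2 to 24.9 CPM in GV (median 14.1) and 6.28 to 34.1 CPM in MI (median 22.5). The groups overlapped in both batches. Stag3 ranged from 1.07 to 2.92 CPM in GV of batch A and from 0.88 to 2.38 CPM in MII. It was at 0 RSEM counts in 1 GV and 3 MI oocytes of batch B, where its highest values were 4.95 and 4.99 CPM.

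**Figure D1:**
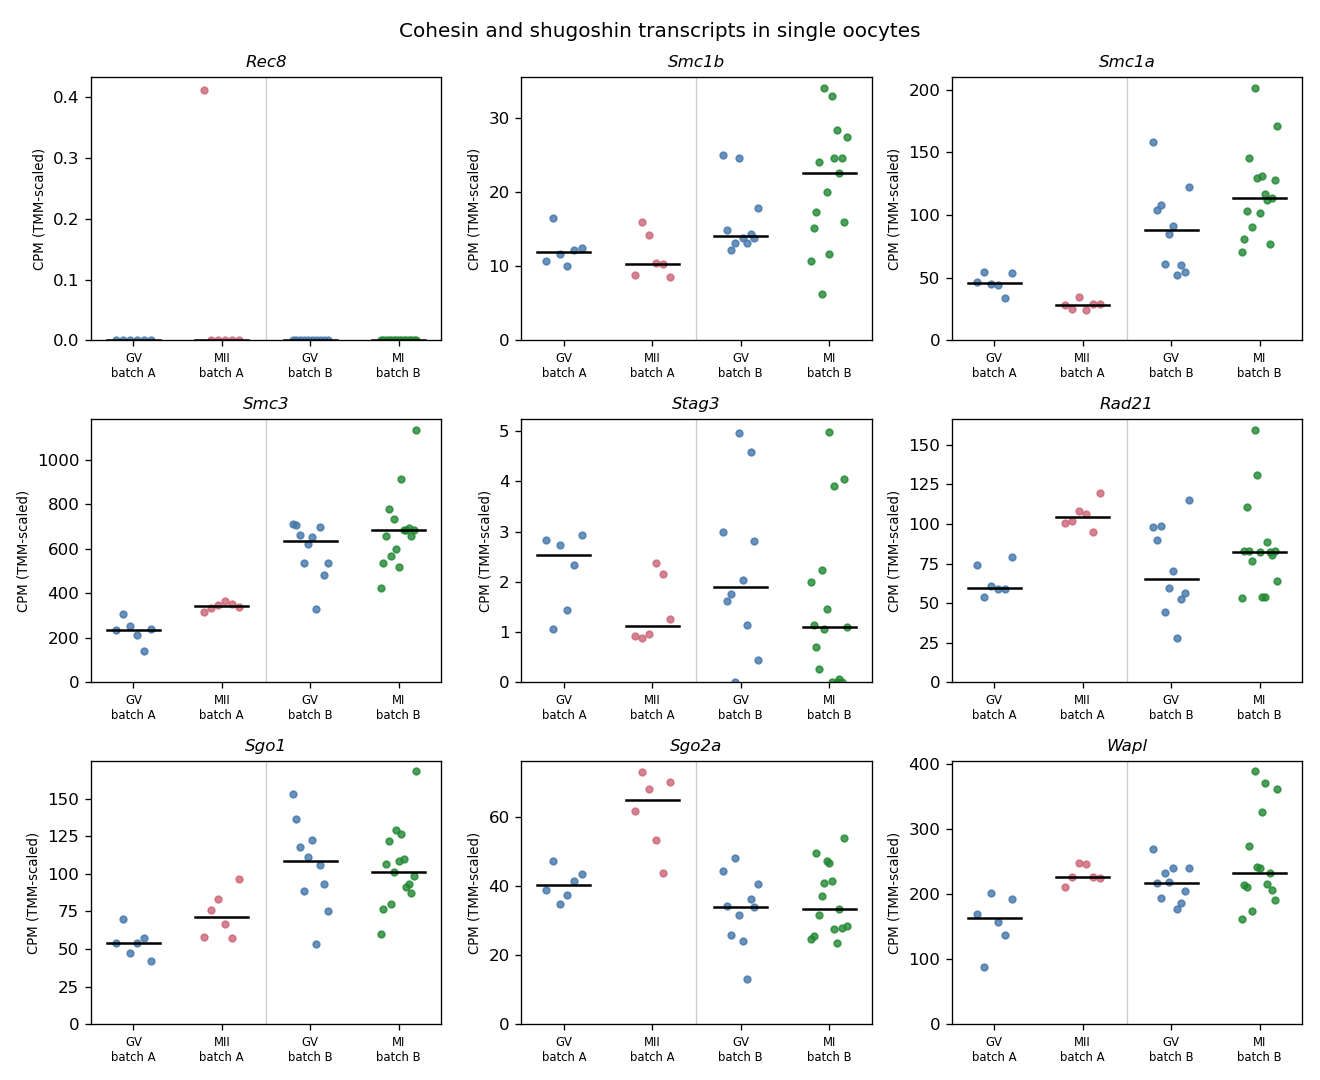
Level of each member in single oocytes, in CPM (counts scaled to library size by TMM) within a batch, on a linear axis from 0. Points are oocytes and lines are medians. Batches were scaled separately, so only groups of 1 batch compare. Rad21, Smc3 and Wapl of MII lie above all GV oocytes of batch A, a separation that was not counted over all genes. Rec8 stays at or near 0.

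Between GV and MII, Rad21 and Smc1a moved in opposite directions with TMM. Rad21, the general kleisin, was between 53.8 and 79.0 CPM in GV (median 59.9) and between 95.2 and 120 CPM in MII (median 104). All 6 MII oocytes lay above all 6 GV oocytes, and the difference was 0.71 ± 0.13 on the log2 scale (SE, adjusted p = 0.0014). Smc1a, the general counterpart of Smc1b, went the other way: 33.7 to 54.6 CPM in GV (median 45.9) and 24.0 to 34.3 CPM in MII (median 28.3). In 5 of 6 MII oocytes it was under every GV oocyte, and the log2 change was -0.71 ± 0.15 (SE, adjusted p = 0.00366).

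Smc3, shared by mitotic and meiotic rings, was at 139 to 306 CPM in GV (median 237) and 315 to 367 CPM in MII (median 341), without overlap. Its log2 change was 0.57 ± 0.15 (SE, adjusted p = 0.0163). Wapl, the release factor, was at 88.1 to 202 CPM in GV (median 163) and 210 to 247 CPM in MII (median 225), also without overlap (0.54 ± 0.17, adjusted p = 0.0293), though leaving out GV replicate 4 or 5 or MII replicate 3 or 4 ended its call (adjusted p up to 0.0653), as did testing without a filter on low counts (adjusted p = 0.0519). The shugoshins protect centromeric cohesion. Sgo2a, the main one known in oocytes, was at 34.7 to 47.2 CPM in GV (median 40.2) and 43.8 to 73.0 CPM in MII (median 64.7), with 5 of 6 MII oocytes above all GV oocytes (0.60 ± 0.15, adjusted p = 0.00952), though it did not pass on HTSeq counts (0.47, adjusted p = 0.0567) or when all 37 oocytes were fitted together with a batch term (0.66, adjusted p = 0.0626). Sgo1 was at 42.2 to 70.1 CPM in GV (median 54.2) and 57.5 to 96.7 CPM in MII (median 71.4), and its difference of 0.43 ± 0.16 did not pass (adjusted p = 0.0703), though it did without GV replicate 2 (adjusted p = 0.0349) or MII replicate 5 (adjusted p = 0.0481).

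Of the 8 members tested, 4 were thus higher in MII and 1 was lower at an adjusted p under 0.05, against 9.06% and 11.5% of all 12929 genes tested. None passed with a fold change over 2 as well, which 2.15% of the genes did upward and 6.32% downward. The median log2 change of the 8 was 0.49, beside 0.01 over all genes tested. The share of all genes without overlap between GV and MII was not counted, so the lack of overlap only describes single members. Smc1b (-0.11 ± 0.21, adjusted p = 0.763) and Stag3 (-0.63 ± 0.39, adjusted p = 0.271) did not pass.

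These changes are relative to the rest of the RNA in a library. The paper proposes that cytoplasmic polyadenylation takes place in maturing oocytes. Whether poly(A) tails affected the counts of the members was not tested. The ribosomal RNA-like share of a library was 7.18% to 20.9% in GV (median 16.0%) and 14.4% to 29.7% in MII (median 21.0%). With the ribosomal RNA-like feature left out, 4 members passed as higher and 1 as lower. Batch A carried ERCC spike-ins, and the endogenous counts per spike-in count were 67.2 to 168 in GV (median 117) and 70.5 to 101 in MII (median 84.8). With spike-in totals as size factors the median change of all genes was -0.72, and 144 genes were higher and 5452 lower in MII, in place of 1172 and 1490. On that scale no member was higher: Rad21 came to -0.05, Smc3 to -0.16, Wapl to -0.21, Sgo2a to -0.15 and Sgo1 to -0.33, none of them past the threshold. Smc1a was at -1.46, Stag3 at -1.39 and Smc1b at -0.84, and all 3 passed. Smc1a was lower on both scales, although its call was lost in the joint fit of all 37 oocytes (-0.66, adjusted p = 0.07).

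**Figure D2:**
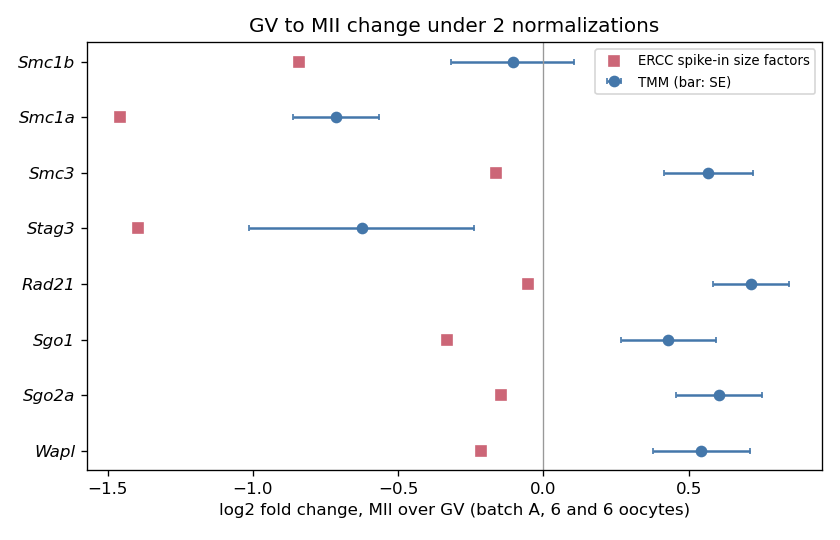
Change between GV and MII in batch A (log2, 6 and 6 oocytes) for the 8 members tested. Circles are TMM with SE bars and squares are spike-in size factors. Rad21, Smc3, Sgo1, Sgo2a and Wapl are above 0 with TMM and below 0 with spike-ins, and Smc1a is below 0 with both.

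Between GV and MI, no member passed the test. The log2 changes lay between -0.53 for Stag3 and 0.40 for Smc1a (SE 0.18, adjusted p = 0.4), and the median over the 8 tested was 0.21, beside 0.02 over all 12419 genes. Smc1a was at 52.3 to 158 CPM in GV (median 87.7) and 70.4 to 201 CPM in MI (median 113), and the groups overlapped for every member. In that comparison 0.0966% of all genes passed upward and 0.0483% downward, 18 genes in all, while 1371 had an unadjusted p under 0.05. DESeq2 called 166 genes and edgeR on HTSeq counts called 0, and neither called a member. On simulated counts the main test recovered 46 of 100 changes of 2-fold, so members that did not pass may still differ.

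Whether the change to MII differed from the change to MI was tested in a model of all 37 oocytes. Smc1a was the 1 member of 8 that passed, with a difference of -1.04 ± 0.29 (SE, adjusted p = 0.0214), in a test where 2.36% of 15083 genes passed downward and 3.1% upward. Stage and batch effects that differ between the batches cannot be told apart in it. On HTSeq counts the value was -1.05 (adjusted p = 0.0423), and without MII replicate 1 it was -1.01 (adjusted p = 0.0498). On simulated counts this test recovered 13 of 100 changes of 2-fold, so the members that did not pass may still differ.

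Levels per length, as TPM (transcript counts over length, scaled to the same total in each oocyte), put Smc3 first and Wapl second in each of the 4 groups. Smc3 averaged 115 ± 28.8 TPM in GV (SD, n = 6) and 157 ± 13.9 TPM in MII (SD, n = 6) of batch A, and 333 ± 83.5 TPM in GV (SD, n = 10) and 378 ± 79.2 TPM in MI (SD, n = 15) of batch B. It was above Wapl in every oocyte. Rad21 and Sgo1 came next in batch A, and in GV they were not separated, with Rad21 above Sgo1 in 2 of 6 oocytes. Smc1a came after Stag2 in GV of batch A (25.4 ± 4.45 TPM, SD, n = 6), and in MII it stood below Sgo2a in all 6 oocytes (14.1 ± 1.69 TPM, SD, n = 6). In batch B it came after Sgo1, with 56.6 ± 23.6 TPM in GV (SD, n = 10). Smc1b averaged 6.38 to 13.9 TPM over the 4 groups, and Stag3 2.12 to 3.74 TPM.

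**Figure D3:**
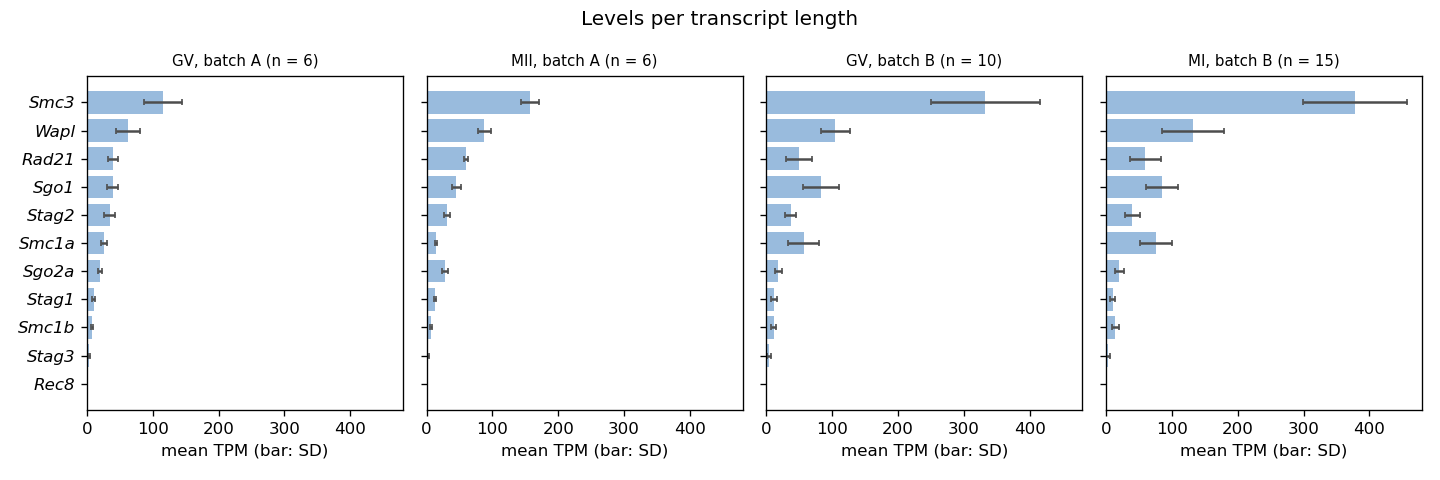
Mean level per transcript length (TPM) of the 9 members with Stag1 and Stag2 in the 4 groups, on a linear axis from 0. Error bars are SD over oocytes. Smc3 and Wapl lead in each group, and Stag3 and Rec8 are last.

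The meiotic and general forms were also set against each other within each oocyte, which needs no size factor. Smc1b was 0.296 times Smc1a per length in GV of batch A and 0.447 times in MII (geometric means). The log2 ratios were -2.07 to -1.35 in GV and -1.55 to -0.43 in MII, which overlap. The exact two-sided permutation test gave p = 0.0173, or 0.139 adjusted over 8 comparisons, and did not pass. In batch B the ratio was 0.201 in GV and 0.177 in MI (permutation, adjusted p = 0.569). Sgo2a to Sgo1 was 0.524 in GV and 0.62 in MII (exact permutation, adjusted p = 0.486). In batch B Sgo2a to Sgo1 was 0.220 in GV and 0.232 in MI (permutation, adjusted p = 0.724). Stag3 to Stag1 plus Stag2 was 0.0635 in GV and 0.0475 in MII (exact permutation, adjusted p = 0.537). It was 0.0495 in GV and 0.0188 in MI of batch B (permutation, adjusted p = 0.486). Some oocytes there had 0 Stag3 counts, so their ratios follow the pseudocount. None of the 6 comparisons of these pairs passed. A ratio of Rec8 to Rad21 is not given, since Rec8 was at 0 and the value would follow Rad21 and the pseudocount. Its 2 comparisons were part of the adjustment over 8, and without them the adjusted p of Smc1b to Smc1a in batch A was 0.104 (exact permutation).

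Each of Smc1b, Smc3, Rad21, Sgo1 and Sgo2a was carried almost wholly by 1 transcript, which held 98.0% or more of the gene's counts in each group. Smc1a-201 held 98.8% in GV and 96.6% in MII of batch A, and 95.7% in GV and 93.9% in MI of batch B. Wapl differed between the batches: Wapl-201 held 98.9% and 98.4% in GV and MII of batch A, but 78.7% and 63.3% in GV and MI of batch B, where Wapl-205 (13.3% and 19.7%) and Wapl-202 (7.84% and 16.8%) held most of the rest. Batch and the oocytes in it cannot be told apart there. Stag3 was spread at few counts over Stag3-209 (56.4% to 70.7%), Stag3-202 and Stag3-204. Stag3-201 was at 0% in both groups of batch A and at 16.5% and 11.3% in GV and MI of batch B.

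Of the 8 member transcripts tested in batch A, Rad21-201 (0.70 ± 0.12, adjusted p = 0.00366), Smc3-201 (0.55 ± 0.15, adjusted p = 0.037) and Sgo2a-201 (0.59 ± 0.15, adjusted p = 0.0271) were higher in MII and Smc1a-201 was lower (-0.76 ± 0.15, adjusted p = 0.00676). Without a filter on low counts none of the 3 higher ones passed (adjusted p = 0.058, 0.141 and 0.214), and with spike-ins all 3 were under 0. Leaving out 1 oocyte ended the call of Smc3-201 for 10 of the 12 oocytes and that of Sgo2a-201 for 7. Of all 22461 transcripts, 3.49% passed upward and 5.81% downward. Wapl-201 did not pass (0.52 ± 0.17, adjusted p = 0.0789). In batch B no member transcript passed, and 0% of 22717 transcripts did. Usage within the gene could be tested for Smc1a and Wapl in batch B, where neither passed (adjusted p = 1 for both) and 0.108% of 5536 genes did.

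Beside the lists of partner genes, 9.06% of all genes passed upward and 11.5% downward between GV and MII. Among the 3 core paralogs tested between GV and MII, Stag1 alone passed and was higher with TMM (0.63 ± 0.18, adjusted p = 0.0206) and fell under 0 with spike-ins (-0.12). Stag2 did not pass (-0.18 ± 0.17, adjusted p = 0.496), its sign turned on HTSeq counts (0.24), and with spike-ins it was at -0.94 and passed. Of 8 loading and release genes, Esco1, an acetyltransferase of SMC3, was the 1 that passed (0.50 ± 0.12, adjusted p = 0.00619, and -0.22 with spike-ins). Both genes of the cleavage step were higher with TMM: Espl1, which encodes separase, by 0.71 ± 0.23 (adjusted p = 0.0372), and Pttg1, which encodes its inhibitor securin, by 0.59 ± 0.19 (adjusted p = 0.0364). With spike-ins they came to -0.04 and -0.17. Leaving out 1 oocyte ended the call of Espl1 for 6 of the 12 oocytes and that of Pttg1 for 8, and leaving out MII replicate 4 ended that of Stag1 (adjusted p = 0.0573). In the model of all 37 oocytes Pttg1 (adjusted p = 0.165) and Stag1 (adjusted p = 0.125) did not pass, and without a filter on low counts Stag1 (adjusted p = 0.0727) and Esco1 (adjusted p = 0.068) did not.

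Of 12 tested genes of centromere protection, 1 was higher and 3 were lower, against 9.06% and 11.5% of all genes, and their median log2 change was -0.0035. Ppp2r1a, a scaffold subunit of PP2A, was at 0.70 ± 0.15 (adjusted p = 0.00451, and 0.01 with spike-ins), and did not pass in the model of all 37 oocytes (adjusted p = 0.231). Meikin, a meiotic kinetochore factor, fell by 1.60 on the log2 scale (SE 0.29, adjusted p = 0.00127). Bub1, the kinase that places shugoshin, fell by 0.65 (SE 0.13, adjusted p = 0.00247). Ppp2r5a was at -1.71 ± 0.42 (adjusted p = 0.00975) on RSEM counts but at 0.08 on HTSeq counts (adjusted p = 0.837), which held 14.1% of its RSEM counts, so its direction depends on the counting. Of 8 tested axis and synapsis genes, 1 was lower, beside the 11.5% of all genes: Syce2 (-0.60 ± 0.14, adjusted p = 0.00632), which did not pass in the model of all 37 oocytes (-0.54, adjusted p = 0.209). Between GV and MI none of the genes of these 5 lists passed. Of the granulosa and cumulus markers, 2 of 5 tested were lower in MI, against 0.0483% of all genes: Ccnd2 (-3.69) and Gja1 (-3.42), each with an adjusted p of 0.0174. Cyp19a1 (-0.22), Nr5a2 (0.75) and Has2 (1.21) did not pass, and of the 15 markers the mean was lower in MI for 8 and higher for 4. On HTSeq counts neither passed (adjusted p = 0.528 and 0.263), and without MI replicate 7, where 0 genes passed, Ccnd2 did not (adjusted p = 0.0532) and Gja1 was not among the genes tested. Their part in the results was not tested.

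The gene pattern most like that of Smc1b over the 37 oocytes, after taking off each batch's mean, was Epb41l3 (Pearson r = 0.70), followed by Hnrnpc (0.69) and Phf14 (0.68). For Stag3 these were Nfkbie (0.67), Nploc4 (0.63) and Gm35191 (0.60), and for Sgo2a Chn2 (0.66), Rb1cc1 (0.66) and Spdl1 (0.63), out of 11804 genes. The oocytes share libraries' depth and stage, and these values are a description. Rec8 had no such genes, since it failed the filter.

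Of the 8 members tested, Sgo2a alone had fewer HTSeq than RSEM counts over all 37 oocytes together, though not in batch A. Over all genes HTSeq counts were 115% of RSEM counts. With the ribosomal RNA-like part left out of the RSEM counts, the ratio per oocyte had group medians of 1.52 to 1.66. HTSeq counts were 197% to 203% of RSEM counts for Smc1b, Smc1a, Smc3, Stag3, Rad21, Sgo1 and Wapl, but 87.6% for Sgo2a. Its median HTSeq and RSEM counts were 524.5 and 459 in GV and 680 and 622 in MII of batch A. In batch B they were 355 and 370 in GV and 278 and 475 in MI. Sgo2a lies on chromosome 1 (57995971 to 58025899) and overlaps Kctd18 on the other strand. Kctd18 itself was at 192%. Whether the counting used strand is not stated, and the part of the overlap was not tested.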

How the data were processed

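Single-oocyte libraries were sequenced in 2 batches. The authors trimmed reads with Trim Galore 0.6.4 and made the deposited expected count tables for genes and transcripts with RSEM 1.3.1 on mm10. The authors made the deposited HTSeq gene count table with STAR 2.7.6a and HTSeq 0.12.4. Whether strand was used is not stated in the sources used here. Symbols and lengths came from GENCODE M21 on GRCm38.

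Expected counts were rounded, and tests took no spike-in rows, of which there were 92. Genes passing filterByExpr were tested with edgeR 4.0.16 (R 4.3.3; quasi-likelihood, TMM, two-sided), with Benjamini-Hochberg adjustment over all genes tested. DESeq2 1.42.0, HTSeq counts, RLE and spike-in size factors, no filter, a replicate block and leaving out each oocyte were alternatives. TPM was computed from transcript expected counts and annotated lengths. Ratios used a pseudocount of 1 count. DESeq2 and the ratio test were not checked on simulated data, the edgeR tests were. Of simulated 2-fold changes, the gene tests recovered 35 of 100 between GV and MII and 46 of 100 between GV and MI. The difference of the changes recovered 13 of 100. The transcript tests recovered 4 of 100 in batch A and 11 of 100 in batch B. On simulated data the difference of the changes gave a share of false calls slightly above the threshold. The usage test made far more false calls than its threshold allows, so its count of calls should not be read as a rate of real changes.

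Named genes were the members, Stag1, Stag2, listed partner genes with an adjusted p under 0.05 (at most 4 per direction and list), and the 3 genes most correlated with each meiotic member. Marker genes named with values were chosen after those were seen. The members and lists were chosen with earlier results of these data known. No pair of libraries in a group agreed within sampling noise. Reads carried no molecular identifiers, so bounds cover counting error only.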

Additional observations from a re-analysis of the deposited data

Results flagged for a closer look

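Rec8 was at 0.412 CPM (TMM) in MII replicate 1 of batch A, and at 0 RSEM counts in the other 5 MII oocytes. Any value over 0 would stand apart from these, and HTSeq gave MII replicate 3 a count of 2. The library of MII replicate 1 had 29816 genes with a count, against at most 22598 in the other MII oocytes. Its blood and immune markers summed to 15.4 CPM, against at most 2.43 CPM in the other oocytes of batch A (both without TMM). A link to Rec8 was not tested. Stag1 in MII replicate 4, at 34.1 CPM, stood far from the rest of its group. It was 1 of 30 groups of values examined without Rec8, and chance gives about 1 in 20.

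The change from GV to MII differed from the change from GV to MI for 1 of 8 members tested, both cleavage genes, 1 of 12 genes of centromere protection, 4 of 10 oocyte markers and 1 of 3 blood and immune markers, and for none of the genes tested in the other lists. Of all 15083 genes, 3.1% passed upward and 2.36% downward. The values are log2 differences. Smc1a was at -1.04, Pttg1 at 1.17, Espl1 at 0.96 and Ppp2r5a at -1.73. Of the oocyte markers Zp3 was at -1.86, Zp2 at -1.74, Zp1 at -1.42 and Npm2 at -1.16, and the blood marker Hbb-bs was at 5.40. Without MII replicate 1, Hbb-bs came to 1.94 (adjusted p = 0.446) and Espl1 to 0.95 (adjusted p = 0.0722), and neither passed. On HTSeq counts Smc1a kept its call, Pttg1 (adjusted p = 0.0729) and Espl1 (adjusted p = 0.0776) lost theirs, and Ppp2r5a came to 0.15. Espl1 also lost its call without a filter on low counts (adjusted p = 0.0593). Stage and batch cannot be told apart in these differences.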

How the results depend on the processing

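In batch A, 2662 genes passed between GV and MII. The count was 1234 in the model of all 37 oocytes, 5596 with spike-in size factors, 5163 with spike-ins on HTSeq counts (chosen after seeing the data) and 1095 with a fold change over 2 as well. Members passing upward came to 0 with spike-ins on either count and with the fold threshold. Members passing downward came to 3 with spike-ins on either count, and to 0 with the fold threshold and in the model of all 37 oocytes. For transcripts, 5142 passed with spike-ins in place of 2089, and 0 member transcripts passed upward with spike-ins or without a filter. Leaving out each oocyte gave 1 to 3 member transcripts upward.

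The labels link oocytes of different stages only by a replicate number. Same-numbered oocytes deviated together with r over 0.1 in 1 of 6 pairs in batch A and 1 of 10 in batch B. These few pairs cannot show whether same-numbered oocytes shared an animal. With the number as a block 1587 genes passed in batch A and 0 in batch B. It changed no member's call, but ended those of Pttg1, Stag1 and Espl1 (adjusted p = 0.0847, 0.0741 and 0.0664) in batch A and of Ccnd2 and Gja1 (adjusted p = 0.22 and 0.245) in batch B.

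In batch B the 18 genes became 44 without a filter, 166 with DESeq2, 149 in the model of all 37 oocytes, 39 without 3 MI oocytes of low HTSeq to RSEM ratio, 0 on HTSeq counts with or without those 3, and 0 to 97 on leaving out each oocyte. It was 0 without MI replicate 7 and 97 without MI replicate 9. Transcripts passing went from 0 to 2 without a filter. The difference of the changes passed for 823 genes, 1600 without a filter, 319 on HTSeq counts and 512 without MII replicate 1 (chosen after seeing the data), where Stag3 turned (0.088). Adjusting the ratio tests without Rec8 (also chosen after seeing the data) made no call.

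Signs turned from GV to MII with spike-ins, on RSEM and then on HTSeq counts, for Rad21 (-0.053, -0.039), Sgo1 (-0.33, -0.34), Smc3 (-0.16, -0.16), Sgo2a (-0.15, -0.30), Wapl (-0.21, -0.24), Pttg1 (-0.17, -0.15), Esco1 (-0.22, -0.20), Stag1 (-0.12, -0.15) and Espl1 (-0.036, -0.045), and for the transcripts Rad21-201 (-0.055), Sgo1-201 (-0.32), Smc3-201 (-0.16), Sgo2a-201 (-0.13) and Wapl-201 (-0.22). On HTSeq counts they turned for Stag2 (0.24, and 0.18 for the difference of the changes) and Ppp2r5a (0.081 and 0.15), and between GV and MI for Sgo1 (0.0071) and Sgo2a (-0.13, and -0.13 without the 3 MI oocytes). In batch B the GV to MI change in the log2 ratio of Sgo2a to Sgo1 turned from 0.076 to -0.17 on HTSeq counts per kb. Leaving out 1 oocyte at a time put the Sgo1 change between GV and MI at -0.11 to 0.042, so some omissions turned its sign and others did not. The cause was not tested. Depth limits Rec8 to an upper bound, and it was also at 0 by both countings in the libraries with the most RSEM and the most HTSeq counts (MI replicates 8 and 7).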
